A study of Mus musculus with 12 samples.

Results

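The genes described here are 43 genes of DNA replication and of mitosis, measured in mouse paw joints. They were chosen by name, as the identifiers of the count table whose mouse symbol is on a fixed list. The rule itself uses no measured value, but the list was drawn up with earlier results of these data known. All 43 were found among the 52636 gene identifiers of the table, 18 of them replication genes and 25 mitosis genes, and all 43 passed the filter on low counts. The study transferred serum of K/BxN mice, which carries arthritogenic antibodies, and asked how joints respond to an agonistic antibody against SIRPa, an inhibitory receptor of myeloid cells. It has 3 groups of 4 mice, with 1 library of joint RNA from each animal. The first group received K/BxN serum and the anti-SIRPa antibody 6F2 (anti-SIRPa mice), the second received K/BxN serum and anti-gp120, a control antibody (control-antibody mice), and the third received anti-gp120 and no serum (naive mice). Joints of the serum recipients were collected on day 7.

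A cell prepares for division by loading the MCM helicase onto replication origins in G1, activates the helicase and copies its DNA in S phase, and then condenses and separates its chromosomes in mitosis. Transcription of the replication genes is driven largely by E2F factors at the G1/S transition. The mitosis genes peak later and are controlled by the DREAM and MuvB complexes with B-Myb and FoxM1, through CHR elements and CCAAT boxes in their promoters. In a resting joint most cells do not divide, and messages of these genes come from the minority that does, for example in skin or marrow. In bulk RNA, fewer dividing cells and less RNA of these genes per cell cannot be told apart.

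Both classes were compared by their promoter sequences, which were taken from RefSeq (GRCm38.p6) as windows of 300 bases, with 250 bases before and 50 bases after the annotated start. In all, 35 of the 43 genes matched and gave 38 windows, 17 for replication genes and 21 for mitosis genes. The windows below are shown because they belong to genes whose levels are described in detail, or hold the motifs of their class. Capitals mark matches, on either strand, to the letters searched: E2F (TTTCCCGC, TTTCGCGC, TTTGGCGC or TTTGCCGC), CHR (TTTGAA or TTTAAA) and the CCAAT box (CCAAT). Each window is printed 5′ to 3′ along the strand of its gene, and matches on the other strand appear as reverse complements. Mcm7 has 2 windows, of which the one with E2F matches is printed.
Mcm3, chr1:20820263-20820562, minus strand: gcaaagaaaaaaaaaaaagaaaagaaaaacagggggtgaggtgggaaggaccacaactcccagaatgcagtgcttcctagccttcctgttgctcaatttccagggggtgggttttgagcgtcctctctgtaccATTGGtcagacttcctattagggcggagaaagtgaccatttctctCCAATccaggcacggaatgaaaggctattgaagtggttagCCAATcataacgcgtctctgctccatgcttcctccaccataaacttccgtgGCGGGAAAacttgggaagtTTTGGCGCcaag
Mcm7, chr5:138171834-138172133, minus strand: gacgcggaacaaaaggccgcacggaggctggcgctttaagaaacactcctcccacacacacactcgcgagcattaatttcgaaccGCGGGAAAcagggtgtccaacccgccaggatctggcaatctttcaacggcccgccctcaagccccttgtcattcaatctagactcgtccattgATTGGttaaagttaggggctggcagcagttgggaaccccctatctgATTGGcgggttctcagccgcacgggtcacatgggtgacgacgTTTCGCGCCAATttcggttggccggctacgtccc
Cdc6, chr11:98907901-98908200, plus strand: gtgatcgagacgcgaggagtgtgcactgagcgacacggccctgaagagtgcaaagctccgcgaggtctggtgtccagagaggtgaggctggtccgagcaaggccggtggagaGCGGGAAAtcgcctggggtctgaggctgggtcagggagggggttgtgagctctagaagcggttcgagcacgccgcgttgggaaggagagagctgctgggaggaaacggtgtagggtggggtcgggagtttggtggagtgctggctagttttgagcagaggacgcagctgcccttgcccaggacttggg
Cenpa, chr5:30666636-30666935, plus strand: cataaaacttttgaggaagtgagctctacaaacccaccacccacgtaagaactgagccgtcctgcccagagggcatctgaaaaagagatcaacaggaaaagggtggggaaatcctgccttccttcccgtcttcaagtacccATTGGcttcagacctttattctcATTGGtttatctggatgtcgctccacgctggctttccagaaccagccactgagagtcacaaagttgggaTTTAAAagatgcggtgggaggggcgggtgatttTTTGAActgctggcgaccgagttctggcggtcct
Plk1, chr7:122159185-122159484, plus strand: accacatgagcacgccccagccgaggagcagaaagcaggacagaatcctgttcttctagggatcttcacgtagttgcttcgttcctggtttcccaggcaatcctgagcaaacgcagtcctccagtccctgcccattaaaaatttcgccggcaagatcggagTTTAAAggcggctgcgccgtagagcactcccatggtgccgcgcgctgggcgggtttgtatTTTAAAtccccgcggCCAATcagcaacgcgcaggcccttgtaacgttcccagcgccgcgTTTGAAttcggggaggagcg
Ccnb2, chr9:70421505-70421804, minus strand: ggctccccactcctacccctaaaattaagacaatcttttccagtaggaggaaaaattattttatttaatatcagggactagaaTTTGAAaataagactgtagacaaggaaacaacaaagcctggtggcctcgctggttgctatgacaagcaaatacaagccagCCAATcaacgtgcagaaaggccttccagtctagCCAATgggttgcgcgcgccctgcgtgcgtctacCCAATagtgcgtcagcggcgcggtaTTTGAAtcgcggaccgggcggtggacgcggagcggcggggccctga

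An E2F match was present in 7 of 17 windows of replication genes (41.2%), against 744 of all 32851 windows of the table (2.26%). Among mitosis genes 1 of 21 windows held one (4.76%), that of Cdk1. The reverse held for the mitotic pair of motifs: a CHR match together with a CCAAT box was found in 17 of 21 windows of mitosis genes (81%), in 5 of 17 of replication genes (29.4%) and in 10.7% of all windows. Taken singly, CHR matches were in 18 of 21 mitosis windows (85.7%), 7 of 17 replication windows (41.2%) and 27.6% of all windows, and CCAAT boxes in 18 of 21 (85.7%), 12 of 17 (70.6%) and 37.4%. The CHR letters are short, and the median GC content was 60.7% for mitosis windows, 57.7% for replication windows and 52.7% for all. Of 112 matches in these windows, 1 pair of different motifs overlapped, the E2F match and CCAAT box at the end of the Mcm7 window. A match is a description of the letters in the window and not evidence that a factor binds there.

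**Figure D1:**
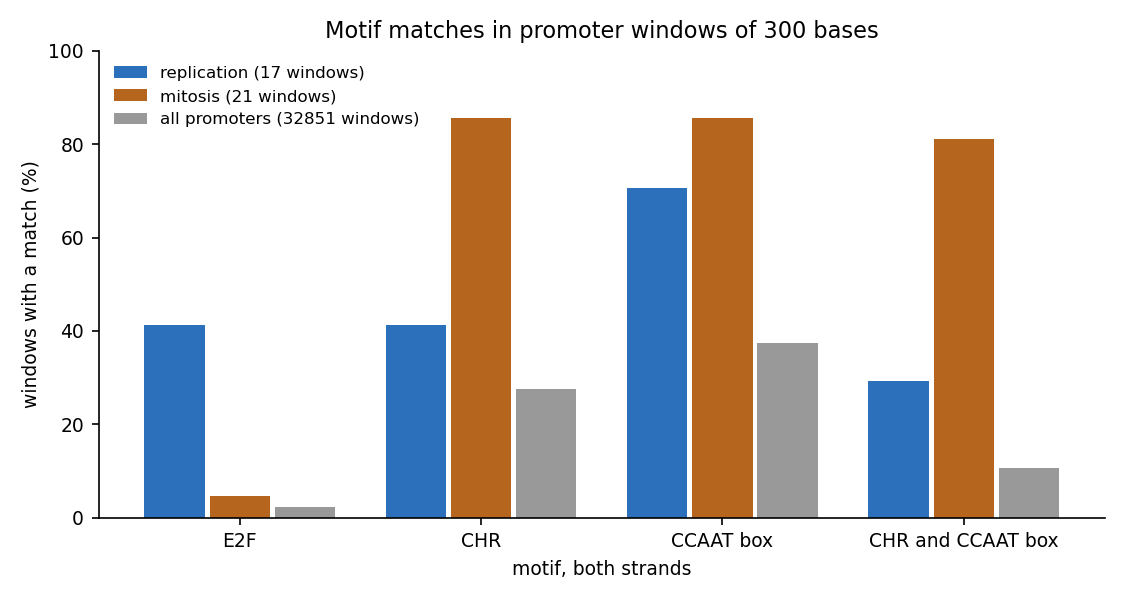
Share of promoter windows (%, vertical axis) with at least 1 match on either strand to the E2F, CHR and CCAAT box letters, or to CHR and CCAAT box together (horizontal axis), for replication genes, mitosis genes and all windows of the RefSeq table. E2F matches stand out in replication windows at 41.2%, and the pair of CHR and CCAAT box in mitosis windows at 81%.

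Levels are given as CPM, a gene's counts scaled to a fixed library total, computed from the deposited gene counts with library totals scaled by the TMM method. Differences are given as log2 fold changes ± SE, from a quasi-likelihood model of edgeR fitted to 16674 genes in all 12 libraries. A gene is called changed when its p value, adjusted by the Benjamini-Hochberg method over those genes, is under 0.05. Total counts ran from 13791454 to 17597920 in anti-SIRPa libraries, from 6893969 to 13416033 in control-antibody libraries and from 14289363 to 16205593 in naive libraries. The comparisons of anti-SIRPa with control-antibody mice and of control-antibody with naive mice share the control-antibody libraries, so a high value there raises one difference and lowers the other.

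With arthritis under control antibody, 6 of 18 replication genes rose over their level in naive joints: Mcm2, Mcm3, Mcm4, Mcm7, Cdc6 and Cdt1, all of origin licensing. Of the 25 mitosis genes 1 passed, Cenpa, also higher. The 7 calls among 43 genes stand beside 10.3% called among all tested genes, 5.87% higher. The median log2 fold change of control-antibody over naive mice was 1.26 for replication genes (range 0.39 to 2.49, 18 of 18 above 0) and 1.61 for mitosis genes (range -0.43 to 2.12, 24 of 25 above 0), against 0.03 for all tested genes. A difference of at least 2-fold was fitted for 15 replication and 22 mitosis genes, and for 8.14% of all genes. At an unadjusted p under 0.05, 13 replication and 12 mitosis genes were higher, as were 16.1% of all genes. The mitosis genes had the larger fitted differences and the larger errors, with a median SE of 0.75 for mitosis and 0.36 for replication genes. The 7 calls became 1 without naive mouse 2 or 4 or control-antibody mouse 2 or 3, where 2.4% to 3.6% of all genes were called. They became 2 without naive mouse 3 or control-antibody mouse 4 (5.18% and 3.9% of all genes), and 4 without naive mouse 1 (4.2%). Without control-antibody mouse 1 they became 22 (27.2% of all genes), and without anti-SIRPa mouse 4 they became 15 (9.53%). DESeq2 called 22 with all mice (17.4% of all genes). Each of these counts of 22 includes Ube2c, called lower.

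Between anti-SIRPa and control-antibody mice, 2 of the 43 genes passed the test, Mcm7 and Cenpa, both lower with anti-SIRPa, beside 3.29% of all tested genes called and 1.7% called lower. The median log2 fold change of anti-SIRPa over control-antibody mice was -1.17 for replication genes (range -1.97 to -0.41) and -1.64 for mitosis genes (range -2.04 to 0.36), against -0.03 for all tested genes. A difference of at least 2-fold downward was fitted for 11 replication and 23 mitosis genes, and for 7.02% of all genes. At an unadjusted p under 0.05, 13 replication and 12 mitosis genes were lower, as were 13.8% of all genes. The 2 calls became 0 without control-antibody mouse 2, 3 or 4 or anti-SIRPa mouse 1 or 2, where 0% to 0.283% of all genes were called. They became 1 without any 1 naive mouse or anti-SIRPa mouse 3 (0.833% to 2.7% of all genes). Without control-antibody mouse 1 they became 21 (23% of all genes), among them Ube2c, called higher. Without anti-SIRPa mouse 4 they became 12 (2.72% of all genes), and DESeq2 called 16 with all mice (12.1%). Between anti-SIRPa and naive mice no member passed in edgeR (0 of 43, and 0% of all tested genes). None of the 43 had an unadjusted p under 0.05 there, where 4.05% of all genes did, and DESeq2 called 0 of the 43 and 20 genes in all. The medians of anti-SIRPa over naive mice were 0.10 for replication genes (range -0.55 to 0.96) and -0.04 for mitosis genes (range -0.44 to 0.68). Without anti-SIRPa mouse 4 these medians were -0.17 and -0.95, and the mitosis median of anti-SIRPa over control-antibody mice was -2.52.

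**Figure D2:**
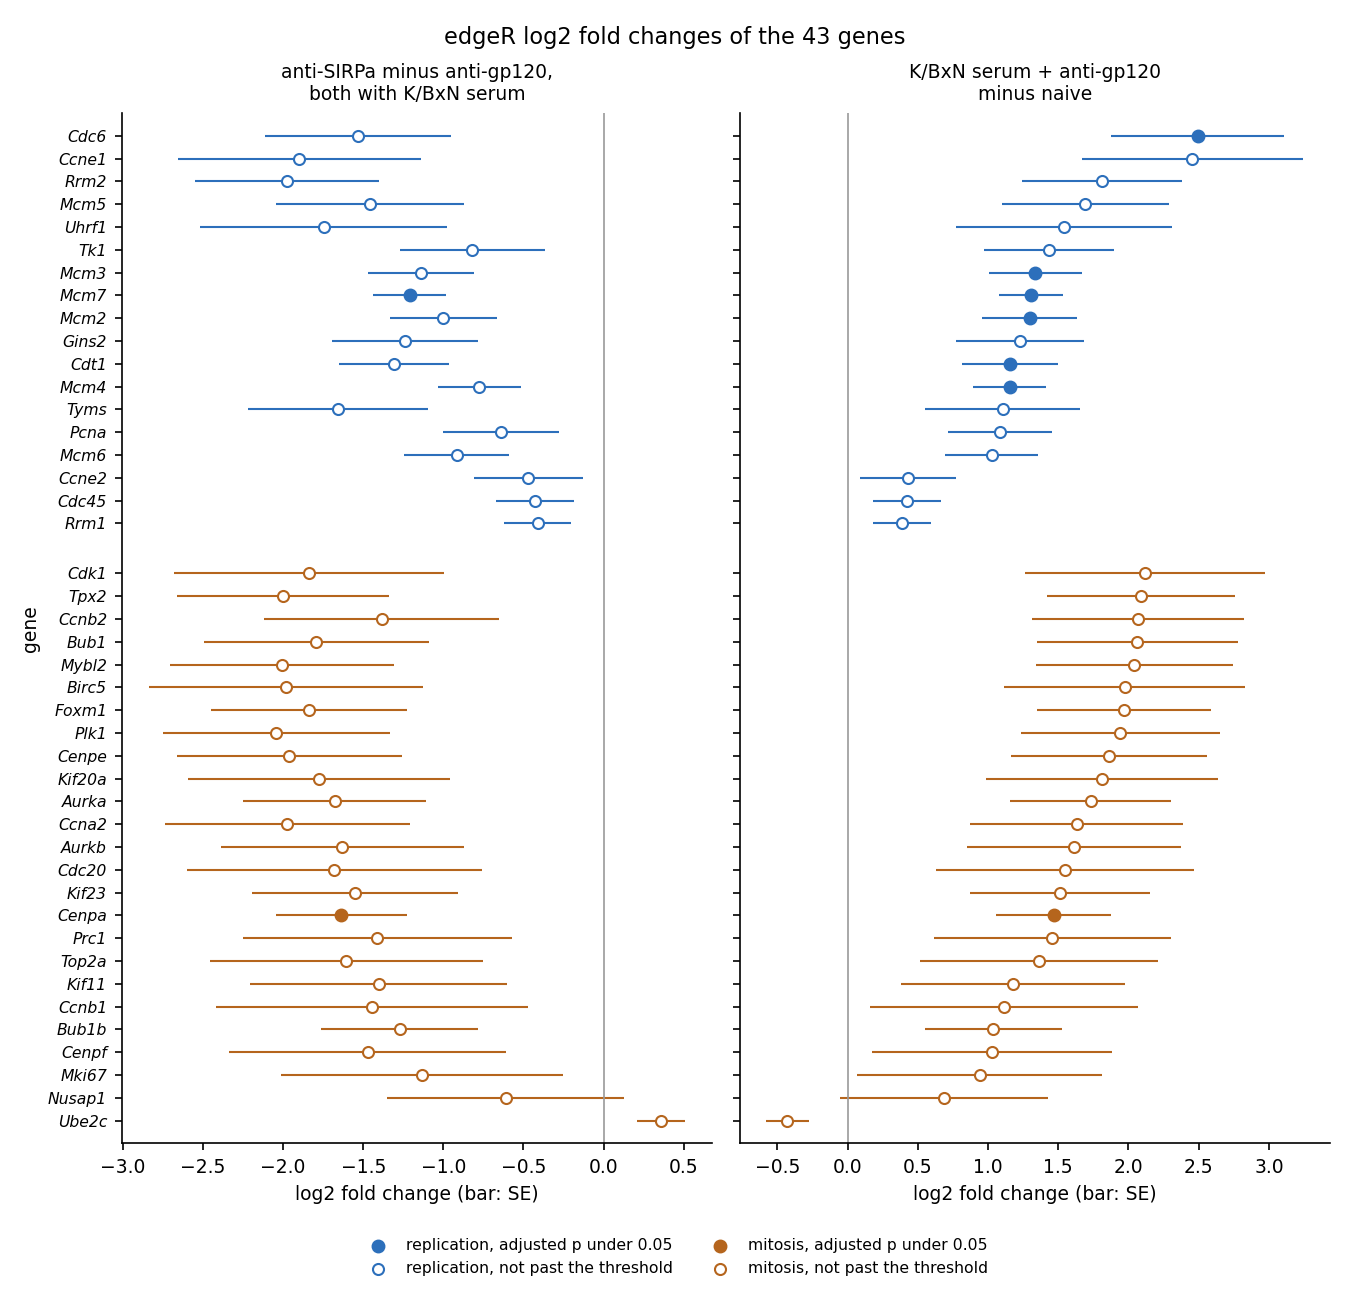
edgeR log2 fold change of each of the 43 genes (horizontal axis, bars are the SE; genes in rows, replication above mitosis) for anti-SIRPa over control-antibody mice at left and control-antibody over naive mice at right. Filled points passed the adjusted p threshold of 0.05: Mcm7 and Cenpa at left, those and Mcm2, Mcm3, Mcm4, Cdc6 and Cdt1 at right. Ube2c lies on the opposite side of 0 from the other genes in both panels.

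The individual mice show how uneven the groups were. Each gene's CPM was divided by its mean in naive mice, and the median of these ratios was taken over the genes of a class. For replication genes the median ratio was 0.918, 0.916, 0.932 and 1.71 in anti-SIRPa mice 1 to 4. It was 1.15, 2.87, 3.40 and 1.98 in control-antibody mice 1 to 4, and 1.32, 1.05, 1.09 and 0.637 in naive mice 1 to 4. Thus 3 of the 4 control-antibody mice were high, control-antibody mouse 1 lay among the naive mice, and anti-SIRPa mouse 4 lay above the rest of its group. For mitosis genes the median ratio was 0.482, 0.331, 0.736 and 2.3 in anti-SIRPa mice 1 to 4, 1.09, 4.29, 4.23 and 2.90 in control-antibody mice 1 to 4, and 1.48, 1.15, 1.14 and 0.214 in naive mice 1 to 4. Mitosis genes therefore spread further than replication genes at both ends, with naive mouse 4 and anti-SIRPa mouse 2 lowest.

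**Figure D3:**
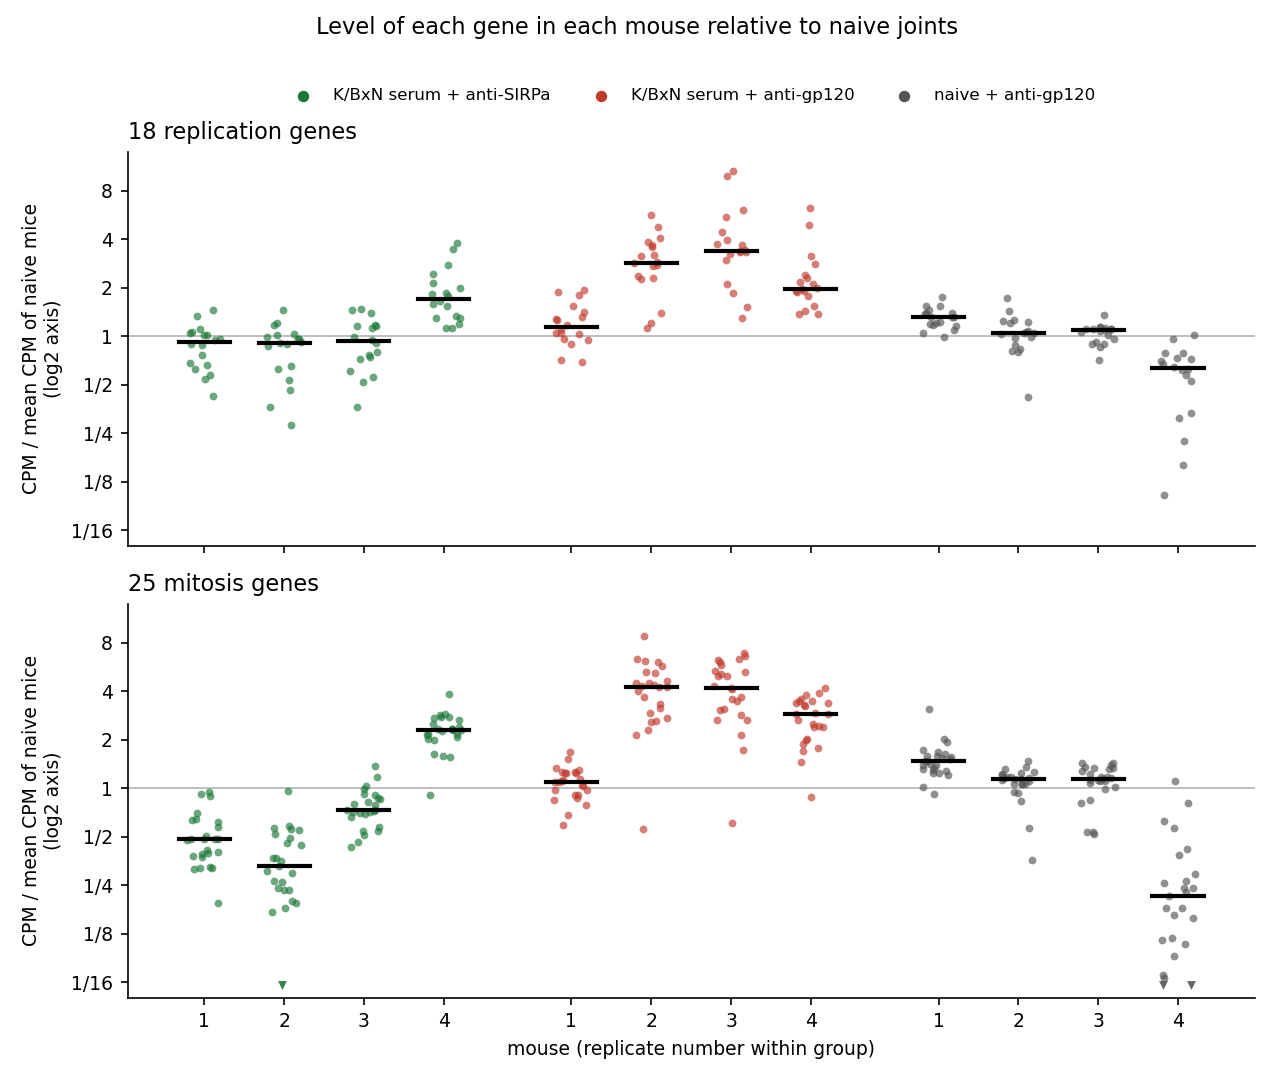
CPM of each gene divided by its mean in naive mice (log2 vertical axis) in each mouse (horizontal axis, numbered within groups), with 18 replication genes above and 25 mitosis genes below. Points are genes, black lines are medians over genes, and triangles at the lower edge stand for values too low for the axis. Control-antibody mice 2, 3 and 4 have medians of 1.98 to 4.29, while control-antibody mouse 1 has 1.15 and 1.09.

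The same CPM values were also counted gene by gene, which restates the medians and is not separate evidence. In anti-SIRPa mice 1 to 4, 1, 2, 4 and 16 of 18 replication genes lay above every naive mouse, as did 0, 0, 0 and 23 of 25 mitosis genes. In control-antibody mice 1 to 4 it was 6, 17, 17 and 18 replication genes and 1, 24, 23 and 22 mitosis genes. Among all tested genes the share above every naive mouse was 19.5%, 18.4%, 23.4% and 26% in anti-SIRPa mice 1 to 4 and 22.7%, 37.2%, 35.2% and 31.3% in control-antibody mice 1 to 4. Within their groups, anti-SIRPa mouse 4 held the highest value for 17 of 18 replication and 24 of 25 mitosis genes, and control-antibody mouse 1 the lowest for 16 and 24. Naive mouse 4 held the lowest value for 16 replication and 23 mitosis genes. The median coefficient of variation of mitosis genes was 95.6% in anti-SIRPa, 50.2% in control-antibody and 58.8% in naive mice, and that of replication genes 33.9%, 44.2% and 29.5% in the same groups, against 17.2%, 27.3% and 17.3% for all tested genes.

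The mice that stood apart within the anti-SIRPa and naive groups also stood apart in RNA of skin. The 10 markers of epidermis and hair were Krt5, Krt14, Krt15, Trp63, Itga6, Krt10, Krt1, Lor, Dsg1a and Krt71. They cover more than the dividing basal layer, so their sum measures skin RNA and not dividing cells. The summed CPM of these markers was 342, 135, 338 and 14336 in anti-SIRPa mice 1 to 4. It was 3595, 1386, 431 and 923 in control-antibody mice 1 to 4 and 11033, 3912, 2981 and 116 in naive mice 1 to 4. Anti-SIRPa mouse 4 and naive mouse 1 had the most, and naive mouse 4 and anti-SIRPa mouse 2 the least. Control-antibody mice 2, 3 and 4 had less epidermal RNA than control-antibody mouse 1, and higher medians of both gene classes. When the mean of these markers was added to the model as a covariate, an alternative chosen after seeing the data, control-antibody over naive calls numbered 12 replication and 21 mitosis genes (12.7% of all genes called), with medians of 1.30 and 1.94. With the same covariate 2 replication and 4 mitosis genes were called lower in anti-SIRPa than in control-antibody mice (3.77% of all genes called), with medians of -1.11 and -1.63. The part of skin RNA in these results was not tested beyond this fit.

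**Figure D4:**
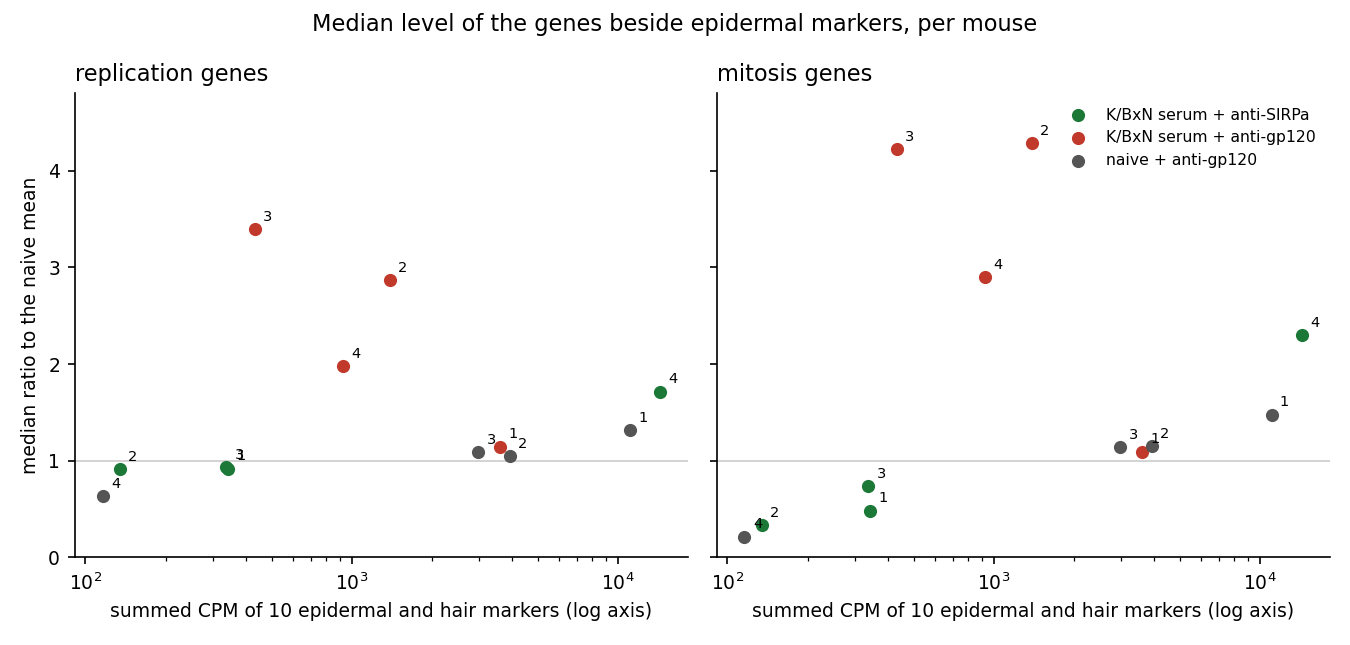
Median ratio to the naive mean (vertical axis) of replication genes at left and mitosis genes at right, against the summed CPM of 10 epidermal and hair markers (log horizontal axis), 1 numbered point per mouse. Control-antibody mice 2, 3 and 4 lie high, with medians of 1.98 to 4.29, at epidermal sums of 431 to 1386 CPM.

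Other cell types of the joint differed between the same mice. The summed CPM of 10 markers of synovial fibroblasts ran from 12718 to 16928 in anti-SIRPa mice, from 11159 to 38581 in control-antibody mice and from 11160 to 17268 in naive mice. Of these 10 markers 5 rose in control-antibody over naive mice (Pdpn, Col1a1, Col3a1, Postn and Cthrc1), beside 5.87% of all tested genes higher. Another 2 were fitted below 0. In anti-SIRPa over control-antibody mice 4 fell (Pdpn, Col3a1, Postn and Cthrc1), beside 1.7% of all tested genes lower. Another 4 were fitted above 0, so the list did not move as a whole. Sums of 10 markers of monocytes and macrophages were 239 to 308, 189 to 472 and 206 to 215 CPM in the same order of groups, and those of 10 markers of mature neutrophils 20.6 to 65.2, 23.2 to 393 and 15.2 to 31.7 CPM. In each of the 3 lists the lowest control-antibody value was that of mouse 1. Skeletal muscle markers, 8 in all, summed to 214928, 218665, 188735 and 107767 CPM in anti-SIRPa mice 1 to 4, 213684, 109926, 125299 and 166102 CPM in control-antibody mice 1 to 4 and 163477, 193532, 211531 and 290532 CPM in naive mice 1 to 4. Naive mouse 4, lowest in both gene classes among naive mice, had the most muscle RNA of all mice, and within each group the mouse with the least, anti-SIRPa mouse 4, control-antibody mouse 2 or naive mouse 1, had the highest mitosis median. Control-antibody mice 2 and 3 were close there, at 4.29 and 4.23. For replication genes this order failed in control-antibody mice, where mouse 3 had a median of 3.40 and mouse 2 of 2.87. Markers of granulocyte precursors, which divide in the marrow, summed to 22.2, 23.4, 74.6 and 8.21 CPM in anti-SIRPa mice 1 to 4. They summed to 3.10 to 7.36 CPM in control-antibody mice and 0.211 to 6.67 CPM in naive mice, with Ms4a3 and Fcnb at 0 in naive mice. Markers of erythroid precursors, which also divide there, summed to 146 to 303 CPM in anti-SIRPa mice, 59.1 to 114 CPM in control-antibody mice and 236 to 370 CPM in naive mice. Control-antibody mice thus lay below both other groups in erythroid sums. Both marrow sums were higher in every anti-SIRPa mouse than in every control-antibody mouse. Of the 10 genes on each of these marrow lists, 5 and 2 passed the filter on low counts. Of the 5 tested granulocyte genes, 3 were above 0 and 2 below in control-antibody over naive mice, where Chil3 alone was called, higher. In anti-SIRPa over control-antibody mice 4 of them were above 0 and 1 below, and 0 were called. The 2 tested erythroid genes went opposite ways in control-antibody over naive mice (log2 fold changes -1.86 and 0.22), where Tfrc alone was called, lower. In anti-SIRPa over control-antibody mice both were above 0 (0.96 and 1.53), and Tfrc alone was called, higher. The erythroid sums therefore do not show a change of the whole list. Sums for 10 markers of B cell precursors were 72.6 to 97.5, 56.6 to 89.2 and 59.8 to 69.7 CPM in anti-SIRPa, control-antibody and naive mice. Of these 10 genes 3 passed the filter, and 0 were called in either comparison. Markers of chondrocytes and bone, which the label of the tissue calls for, summed to 642 to 777 CPM in anti-SIRPa mice, 577 to 1261 CPM in control-antibody mice and 488 to 716 CPM in naive mice. The part of these cell types in the gene levels was not tested.

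Origin licensing genes load and form the replicative helicase. Mcm7, a subunit of the MCM2-7 ring, had 6.11, 5.09, 6.71 and 6.45 CPM in anti-SIRPa mice 1 to 4, against 11.1, 13.0, 21.5 and 10.8 CPM in control-antibody mice and 6.27, 5.69, 6.33 and 4.52 CPM in naive mice. Every control-antibody mouse lay above every anti-SIRPa mouse and every naive mouse, and among the 43 genes only Mcm7 showed this in both comparisons. Control-antibody over naive was 1.30 ± 0.23 (log2, SE; edgeR adjusted p = 0.00852) and anti-SIRPa over control-antibody was -1.21 ± 0.23 (edgeR adjusted p = 0.0262). The first call held when any 1 mouse was left out. The second was lost without control-antibody mouse 2, 3 or 4 or anti-SIRPa mouse 1 or 2 (edgeR adjusted p = 0.0507 to 0.0952). Mcm7 (ENSMUSG00000029730) lies on the minus strand of GRCm38 chromosome 5, from 138164583 to 138172422, and overlaps Cops6 by 64 bases and Ap4m1 by 421 bases on the opposite strand.

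The other MCM subunits had the same order of groups with more overlap. Mcm4 had 13.9, 16.1, 15.2 and 23.4 CPM in anti-SIRPa mice 1 to 4, against 16.7, 36.6, 39.4 and 25.1 CPM in control-antibody mice and 15.5, 13.7, 14.3 and 9.35 CPM in naive mice. All control-antibody mice exceeded all naive mice, and anti-SIRPa mouse 4 exceeded control-antibody mouse 1. Mcm4 rose by 1.15 ± 0.26 in control-antibody over naive mice (edgeR adjusted p = 0.0193), and anti-SIRPa over control-antibody was -0.78 ± 0.26 (edgeR adjusted p = 0.0964). Mcm3 had 15.9, 14.4, 15.6 and 25.9 CPM in anti-SIRPa mice, against 18.5, 45.3, 61.7 and 32.9 CPM in control-antibody mice and 20.6, 13.1, 17.3 and 11.6 CPM in naive mice. Control-antibody mouse 1 lay within the naive range for Mcm3, which kept the groups from separating. It rose by 1.34 ± 0.33 in control-antibody over naive mice (edgeR adjusted p = 0.029), and anti-SIRPa over control-antibody was -1.14 ± 0.33 (edgeR adjusted p = 0.0703).

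Mcm2 had 11.9, 12.5, 14.2 and 23.5 CPM in anti-SIRPa mice 1 to 4, against 16.2, 40.3, 43.2 and 24.9 CPM in control-antibody mice and 17.7, 13.3, 11.6 and 7.97 CPM in naive mice. Its pattern was that of Mcm3, with control-antibody mouse 1 inside the naive range, and it rose by 1.30 ± 0.34 in control-antibody over naive mice (edgeR adjusted p = 0.0329). Mcm6, the most abundant licensing gene by CPM, had 21.4, 20.03, 15.6 and 33.1 CPM in anti-SIRPa mice, against 21.8, 48.2, 68.1 and 32.1 CPM in control-antibody mice and 25.6, 20.3, 22.4 and 15.2 CPM in naive mice. It missed the threshold of edgeR in both comparisons (edgeR adjusted p = 0.0667 for control-antibody over naive and 0.122 for anti-SIRPa over control-antibody). DESeq2 called it higher in the first comparison and lower in the second. The edgeR calls in control-antibody over naive mice were lost for Mcm2 and Mcm3 without naive mouse 2, 3 or 4 or control-antibody mouse 2, 3 or 4 (edgeR adjusted p = 0.0545 to 0.1 and 0.0528 to 0.0874), and for Mcm4 without naive mouse 2 or 4 or control-antibody mouse 2 or 3 (edgeR adjusted p = 0.0529 to 0.0665). DESeq2 also called Mcm5 higher in control-antibody than in naive mice (17.4% of all genes called). It called Mcm2, Mcm3, Mcm4, Mcm7 and Cdt1 lower in anti-SIRPa than in control-antibody mice (12.1% of all genes called).

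Cdc6 and Cdt1 recruit the MCM ring to origins. Cdc6 had 0.705, 0.708, 0.722 and 1.70 CPM in anti-SIRPa mice 1 to 4, against 0.91, 2.76, 5.14 and 2.38 CPM in control-antibody mice and 0.67, 0.702, 0.492 and 0.0766 CPM in naive mice. Control-antibody mice lay above all naive mice, and so did anti-SIRPa mice by a narrow margin, the single case of separate groups between anti-SIRPa and naive mice among the 43 genes, beside 3.04% of all tested genes separated upward. These levels rest on 63 counts in anti-SIRPa, 133 in control-antibody and 29 in naive libraries. Cdc6 rose by 2.49 ± 0.62 in control-antibody over naive mice (edgeR adjusted p = 0.0256), and the call was lost without any 1 of the naive mice or without control-antibody mouse 2, 3 or 4 (edgeR adjusted p = 0.0528 to 0.0945). Cdt1 had 3.82, 4.44, 2.38 and 4.81 CPM in anti-SIRPa mice, against 4.14, 10.1, 14.3 and 9.82 CPM in control-antibody mice and 5.17, 4.50, 4.71 and 2.76 CPM in naive mice. Anti-SIRPa and naive mice overlapped throughout, and control-antibody mouse 1 lay among them. Cdt1 rose by 1.16 ± 0.34 in control-antibody over naive mice (edgeR adjusted p = 0.0467), and anti-SIRPa over control-antibody was -1.31 ± 0.34 (edgeR adjusted p = 0.052). Its call was lost in 10 of 12 omissions of 1 mouse, all but those of control-antibody mouse 1 and anti-SIRPa mouse 3 (edgeR adjusted p = 0.0537 to 0.152).

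**Figure D5:**
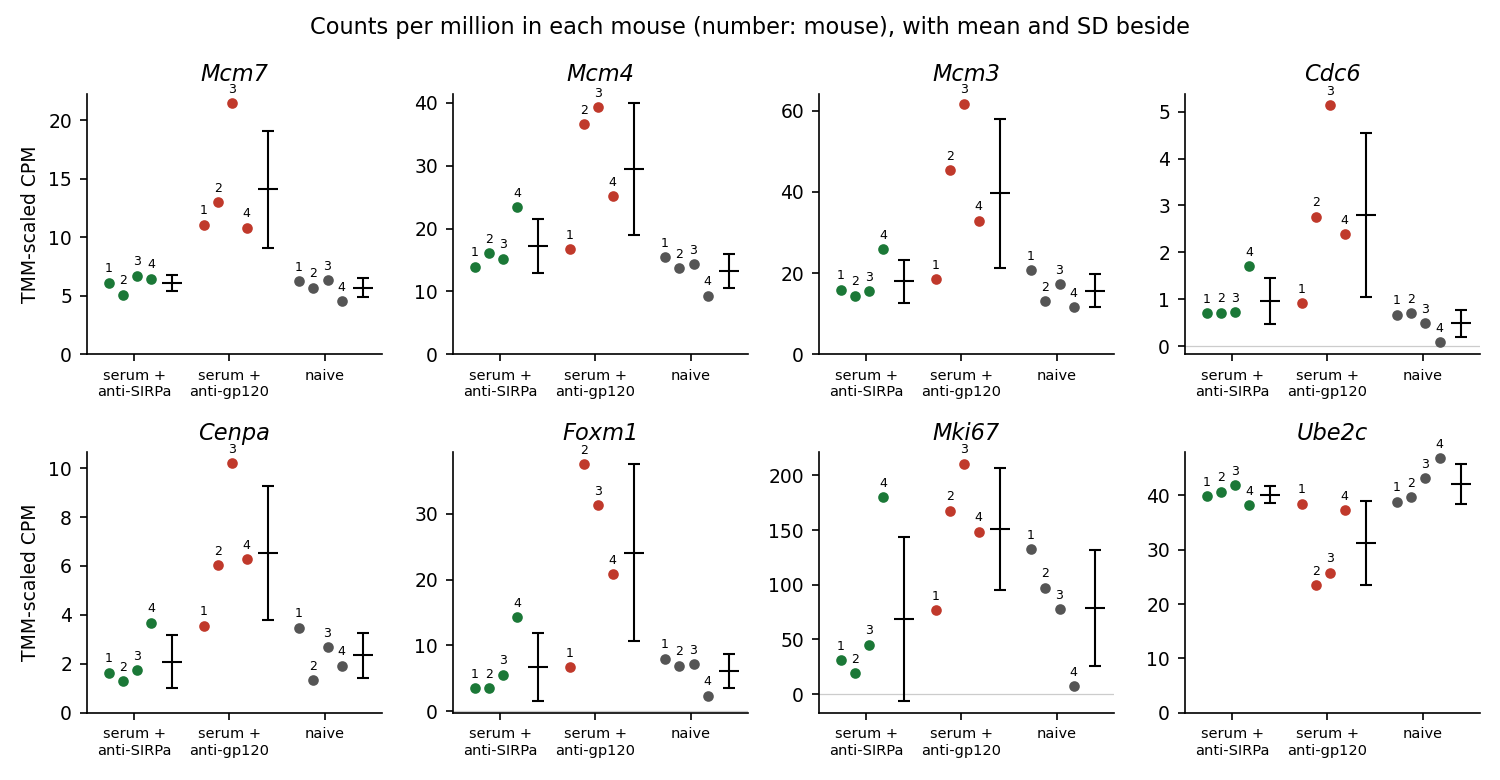
TMM-scaled CPM (vertical axis) of Mcm7, Mcm4, Mcm3, Cdc6, Cenpa, Foxm1, Mki67 and Ube2c in each mouse, numbered within the 3 groups (horizontal axis), with the group mean and SD beside the points. For Mcm7 the control-antibody mice, at 10.8 to 21.5 CPM, lie above all other mice, and for Mki67 anti-SIRPa mouse 4, at 180 CPM, and naive mouse 4, at 7.13 CPM, stand apart from their groups.

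In edgeR the replication genes outside licensing did not pass in either comparison, while DESeq2 called Ccne1, Rrm2 and Tk1 higher in control-antibody than in naive mice and Rrm2 and Tyms lower in anti-SIRPa than in control-antibody mice. Cyclins E1 and E2, which drive entry into S phase, differed in size of effect. Ccne1 averaged 1.02 ± 1.09 CPM in anti-SIRPa, 3.83 ± 2.44 CPM in control-antibody and 0.688 ± 0.459 CPM in naive mice (SD, n = 4 each), a control-antibody over naive fold change of 2.45 ± 0.79 (edgeR adjusted p = 0.0635). Ccne2 stood at 2.35 to 4.81, 2.56 to 7.93 and 2.3 to 4.44 CPM in the same groups, with a fold change of 0.43 ± 0.34 (edgeR adjusted p = 0.433), and overlaps Ints8 on the opposite strand by 5622 bases. Helicase activation showed the same contrast between Gins2 and Cdc45. Gins2, of the GINS complex, had 1.23, 1.48, 1.37 and 4.87 CPM in anti-SIRPa mice, against 3.23, 6.17, 7.63 and 4.33 CPM in control-antibody mice and 2.98, 2.74, 2.04 and 1.30 CPM in naive mice. All control-antibody mice exceeded all naive mice, and the fold change was 1.23 ± 0.46 (edgeR adjusted p = 0.0975). Cdc45, which joins GINS on the helicase, had a fold change of 0.42 ± 0.24 (edgeR adjusted p = 0.272).

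Genes of nucleotide supply make the deoxynucleotides for DNA synthesis. Among them Tk1, thymidine kinase, had 1.29, 1.29, 1.95 and 3.74 CPM in anti-SIRPa mice, against 2.07, 4.99, 4.99 and 2.67 CPM in control-antibody mice and 1.89, 0.562, 1.55 and 1.38 CPM in naive mice. Control-antibody mice again lay above all naive mice (fold change 1.44 ± 0.46, edgeR adjusted p = 0.0628). Rrm1, the large subunit of ribonucleotide reductase and the highest of the 4 by CPM, had 23.3 to 40.7 CPM in anti-SIRPa mice, 28.5 to 46.0 CPM in control-antibody mice and 20.2 to 35.1 CPM in naive mice, with the smallest fold change of the class (0.39 ± 0.21, edgeR adjusted p = 0.239). Rrm2, the small subunit, and Tyms, thymidylate synthase, had fold changes of 1.81 and 1.10 and did not pass. Uhrf1, which directs maintenance methylation to new DNA, averaged 4.49 CPM in anti-SIRPa, 15.2 CPM in control-antibody and 5.17 CPM in naive mice (fold change 1.54 ± 0.77, edgeR adjusted p = 0.216). Pcna, the sliding clamp, had only 1.03 to 1.36, 1.13 to 2.76 and 0.69 to 1.2 CPM in the same groups. Its processed copy Pcna-ps2 averaged 1.83 CPM over all mice, above Pcna itself at 1.32 CPM, so reads may be divided between them and the level of Pcna is uncertain.

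In all, 6 of the 43 genes separated control-antibody from naive mice upward, Mcm4, Mcm7, Cdc6, Tk1, Gins2 and Cenpa, where 6.02% of all tested genes did. Downward it was Ube2c alone, beside 6.47% of all genes. Between anti-SIRPa and control-antibody mice Mcm7 alone separated, downward, beside 4.82% of all genes.

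Among the mitosis genes, Cenpa, the histone H3 variant that marks centromeres, was the single one to pass in edgeR. It had 1.65, 1.29, 1.73 and 3.68 CPM in anti-SIRPa mice 1 to 4, against 3.56, 6.04, 10.2 and 6.28 CPM in control-antibody mice and 3.47, 1.33, 2.67 and 1.92 CPM in naive mice. The lowest control-antibody mouse lay just above the highest naive mouse and just below anti-SIRPa mouse 4. Cenpa rose by 1.47 ± 0.41 in control-antibody over naive mice (edgeR adjusted p = 0.0387), and changed by -1.64 ± 0.41 in anti-SIRPa over control-antibody mice (edgeR adjusted p = 0.047). Both calls were near the threshold. The first was lost without any 1 naive mouse, control-antibody mouse 2, 3 or 4, or anti-SIRPa mouse 1 or 3 (edgeR adjusted p = 0.0504 to 0.130), and the second without any 1 naive mouse, control-antibody mouse 2, 3 or 4, or anti-SIRPa mouse 1, 2 or 3 (edgeR adjusted p = 0.0572 to 0.147). Cenpf, a large kinetochore protein, had 7.82, 4.25, 11.5 and 49.5 CPM in anti-SIRPa mice, against 27.5, 65.1, 66.5 and 44.3 CPM in control-antibody mice and 39.3, 29.1, 28.2 and 2.91 CPM in naive mice. Anti-SIRPa mouse 4 and naive mouse 4 were far from the rest of their groups, and the fold change was 1.03 ± 0.85 for control-antibody over naive (edgeR adjusted p = 0.467). Cenpe, in the same role, changed by 1.86 ± 0.70 in control-antibody over naive mice (edgeR adjusted p = 0.114). In anti-SIRPa over control-antibody mice it changed by -1.96 ± 0.70 (edgeR adjusted p = 0.128). DESeq2 called Cenpa and Cenpe higher in the first comparison and lower in the second.

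Among the chromosome structure genes the spread was wide. Mki67, the usual marker of dividing cells, which coats mitotic chromosomes, had 31.0, 19.0, 45.2 and 180 CPM in anti-SIRPa mice 1 to 4, against 77.0, 168, 211 and 149 CPM in control-antibody mice and 132, 97.5, 77.5 and 7.13 CPM in naive mice. Control-antibody over naive was 0.94 ± 0.87 (edgeR adjusted p = 0.521) and anti-SIRPa over control-antibody was -1.13 ± 0.88 (edgeR adjusted p = 0.463). With the epidermal markers as a covariate, the first became 1.51 (edgeR adjusted p = 0.0303). Top2a, the topoisomerase that untangles sister chromatids, had 13.0, 8.18, 17.0 and 67.5 CPM in anti-SIRPa mice, against 32.3, 98.5, 116 and 75.6 CPM in control-antibody mice and 50.04, 36.2, 35.5 and 3.37 CPM in naive mice. As for Mki67, anti-SIRPa mouse 4 reached the control-antibody range and naive mouse 4 lay far below the other naive mice (control-antibody over naive 1.36 ± 0.85, edgeR adjusted p = 0.322).

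The regulators of the G2/M program had larger fold changes, none of them past the threshold in edgeR. DESeq2 called Foxm1, Mybl2 and Ccnb2 higher in control-antibody than in naive mice, and Foxm1 and Mybl2 lower in anti-SIRPa than in control-antibody mice. Foxm1, the forkhead factor that activates mitotic genes, had 3.53, 3.48, 5.56 and 14.3 CPM in anti-SIRPa mice 1 to 4, against 6.70, 37.6, 31.3 and 20.9 CPM in control-antibody mice and 7.97, 6.95, 7.17 and 2.38 CPM in naive mice. Control-antibody mice 2, 3 and 4 lay above all other mice, and control-antibody mouse 1 lay in the naive range (control-antibody over naive 1.97 ± 0.62, edgeR adjusted p = 0.066; anti-SIRPa over control-antibody -1.84 ± 0.61, edgeR adjusted p = 0.107). Mybl2, or B-Myb, had fold changes of 2.04 and -2.01 in those comparisons. Of the cyclins, Ccna2 averaged 5.06 CPM in anti-SIRPa, 20.01 CPM in control-antibody and 6.42 CPM in naive mice, and Ccnb2 averaged 3.40, 8.95 and 2.11 CPM in the same groups (control-antibody over naive 1.63 ± 0.76 with edgeR adjusted p = 0.189, and 2.07 ± 0.75 with edgeR adjusted p = 0.0992). Cdk1, the kinase that these cyclins activate, had the largest control-antibody over naive fold change of the mitosis genes, 2.12 ± 0.86. Ccnb1 was at the limit of detection, with 21, 39 and 25 counts in the anti-SIRPa, control-antibody and naive libraries.

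In edgeR none of the kinase and checkpoint genes passed. DESeq2 called Aurka, Plk1 and Bub1 higher in control-antibody than in naive mice, and Aurka, Plk1 and Bub1b lower in anti-SIRPa than in control-antibody mice. Aurka, the spindle pole kinase, had 0.881, 0.902, 1.59 and 4.19 CPM in anti-SIRPa mice, against 1.65, 7.75, 9.67 and 5.34 CPM in control-antibody mice and 2.56, 2.11, 1.48 and 1.15 CPM in naive mice (control-antibody over naive 1.73 ± 0.57, edgeR adjusted p = 0.0702). Only control-antibody mouse 1 kept the control-antibody mice from lying above all naive mice. Bub1b, of the spindle checkpoint, had 4.29, 4.96, 6.35 and 14.6 CPM in anti-SIRPa mice, 6.12, 24.4, 27.6 and 15.1 CPM in control-antibody mice and 10.8, 9.90, 9.84 and 5.06 CPM in naive mice (1.04 ± 0.49, edgeR adjusted p = 0.188). The remaining members of this role, Aurkb, Plk1, Bub1 and the survivin gene Birc5, had control-antibody over naive fold changes of 1.61 to 2.06, and anti-SIRPa over control-antibody fold changes of -2.04 to -1.63. Among the spindle genes Tpx2, which activates Aurora A on microtubules, had 4.11, 3.48, 5.70 and 15.0 CPM in anti-SIRPa mice, 8.27, 31.0, 46.3 and 28.1 CPM in control-antibody mice and 9.44, 7.73, 7.80 and 1.61 CPM in naive mice (2.09 ± 0.67, edgeR adjusted p = 0.0714). The spindle genes Kif11, Kif20a, Kif23, Prc1 and Nusap1 had fold changes of 0.69 to 1.81 and none passed in edgeR, with Prc1 and Kif20a overlapping other genes on the opposite strand by 21810 and 2327 bases. DESeq2 called Tpx2 and Kif23 higher in control-antibody than in naive mice, and Tpx2 lower in anti-SIRPa than in control-antibody mice.

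Ube2c, the ubiquitin-conjugating enzyme of the anaphase promoting complex, differed from the other genes. It had 39.9, 40.7, 41.9 and 38.2 CPM in anti-SIRPa mice 1 to 4, against 38.5, 23.5, 25.8 and 37.3 CPM in control-antibody mice and 38.8, 39.7, 43.2 and 46.8 CPM in naive mice. Its control-antibody over naive fold change was -0.43 ± 0.15 (edgeR adjusted p = 0.0822) and its anti-SIRPa over control-antibody fold change 0.36 ± 0.15 (edgeR adjusted p = 0.165), each with the sign opposite to the other 42 genes. DESeq2 called it lower in control-antibody than in naive mice. Naive mouse 4, lowest for 23 of the mitosis genes, was highest for Ube2c. The gene (ENSMUSG00000001403, plus strand of GRCm38 chromosome 2, from 164769898 to 164778822) overlaps Tnnc2, the troponin C of fast skeletal muscle, by 1662 bases on the opposite strand. Tnnc2 averaged 5963 CPM in anti-SIRPa, 4345 CPM in control-antibody and 6200 CPM in naive mice. Ube2c was 0.607% to 0.814% of Tnnc2 in every library, lowest in control-antibody mouse 1 and highest in control-antibody mouse 4. The strand setting of the counting is not given in the sources used here, and if it ignored strand, reads of both genes cannot be told apart. Cdc20, the activator of the same complex, followed the other mitosis genes, at 2.49 CPM in anti-SIRPa, 8.07 CPM in control-antibody and 2.74 CPM in naive mice on average (1.55 ± 0.92, edgeR adjusted p = 0.296).

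Levels between genes were compared per length, as CPM per kilobase of exon averaged over the 12 mice. On this scale Ube2c, whose reads may not be separable from those of the overlapping Tnnc2, stood at 14.6, and the next were Mki67 at 9.89, Mcm3 at 6.51, Mcm6 at 6.14, Mcm4 at 5.56 and Top2a at 5.12. The lowest were Ccnb1 at 0.128, Cdc6 at 0.27 and Tyms at 0.293. Among the MCM subunits, RNA levels on this scale ran from 1.95 for Mcm7 to 6.51 for Mcm3. The length counts every annotated exon of a gene and can exceed that of the expressed transcript. Differences between genes on this scale are therefore rough, and they do not give protein numbers.

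Cell cycle genes outside the 43 were counted on separate lists. Of 42 other replication and repair genes 10 rose in control-antibody over naive mice, with a median of 0.80 and 39 of 42 above 0, beside 5.87% of all tested genes called higher. The 10 became 1 without naive mouse 4 or control-antibody mouse 3, and 3 to 5 without any other 1 naive mouse or control-antibody mouse 2 or 4. They became 21 without control-antibody mouse 1. For this and the following lists, the shares of all genes called under each omission are those given above for the 43 genes. Mcm10, which activates the loaded helicase, had the smallest p among them and kept its call under every omission of 1 mouse, with 1.41, 1.48, 2.53 and 3.45 CPM in anti-SIRPa mice, 2.98, 8.54, 11.4 and 5.85 CPM in control-antibody mice and 1.52, 1.76, 1.76 and 0.537 CPM in naive mice (2.35 ± 0.47, edgeR adjusted p = 0.012). Between anti-SIRPa and control-antibody mice 4 of the 42 fell, the DNA polymerase epsilon gene Pole, the histone chaperone gene Chaf1a, the flap nuclease Fen1 and the dUTPase Dut, with a median of -0.77 over the list, beside 1.7% of all tested genes called lower. The 4 became 0 without control-antibody mouse 2, 3 or 4 or anti-SIRPa mouse 1, 2 or 3, 1 without naive mouse 1, 2 or 3, 20 without control-antibody mouse 1 and 8 without anti-SIRPa mouse 4. Dut, which keeps uracil out of DNA, had 7.87, 6.18, 6.71 and 8.38 CPM in anti-SIRPa mice, 11.8, 14.2, 20.02 and 12.9 CPM in control-antibody mice and 8.10, 9.06, 7.87 and 7.97 CPM in naive mice, so the control-antibody mice lay above both other groups (control-antibody over naive 0.84 ± 0.18, edgeR adjusted p = 0.0169; anti-SIRPa over control-antibody -1.01 ± 0.18, edgeR adjusted p = 0.0237). The first call of Dut was lost without naive mouse 4 or control-antibody mouse 3 (edgeR adjusted p = 0.0541 to 0.0579), and the second without control-antibody mouse 2, 3 or 4 or anti-SIRPa mouse 1, 2 or 3 (edgeR adjusted p = 0.0506 to 0.0922). Of 55 other mitosis genes that could be tested, 3 rose in control-antibody over naive mice, the condensin subunit Ncapd2, the Cenpa chaperone Hjurp and Trip13, a share close to the 5.87% of all tested genes, with a median of 1.30. In anti-SIRPa over control-antibody mice edgeR called 0 of these 55, with an edgeR median of -1.43. At an unadjusted edgeR p under 0.05, 22 were lower, as were 13.8% of all genes. DESeq2 called 15, beside 12.1% of all genes. Each of the 3 calls was lost without any 1 naive mouse or control-antibody mouse 2, 3 or 4 (edgeR adjusted p up to 0.149).

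Upstream of the cycle, 6 of 18 G1 cyclins, E2F genes and activators rose in control-antibody over naive mice (Ccnd3, Cdk4, E2f3, E2f7, Cdc25a and Myc) and 3 fell in anti-SIRPa below control-antibody mice (Ccnd3, Cdk4 and Myc), with medians of 0.66 and -0.59, beside 5.87% of all tested genes higher and 1.7% lower. The 6 became 2 or 3 without any 1 naive mouse or control-antibody mouse 2, 3 or 4, and 10 without control-antibody mouse 1. The 3 became 0 without control-antibody mouse 2, 3 or 4 or anti-SIRPa mouse 1, 2 or 3, 1 without naive mouse 1, 2 or 3, and 10 without control-antibody mouse 1. Myc, a factor that drives cells into the cycle, had 14.5, 13.3, 17.98 and 24.6 CPM in anti-SIRPa mice, 29.8, 57.5, 69.2 and 45.3 CPM in control-antibody mice and 24.96, 17.6, 17.6 and 12.3 CPM in naive mice (1.48 ± 0.28 with edgeR adjusted p = 0.0116, and -1.52 ± 0.28 with edgeR adjusted p = 0.0265). All control-antibody mice, mouse 1 included, lay above both other groups. The first call of Myc held when any 1 mouse was left out, and the second was lost without control-antibody mouse 2, 3 or 4 or anti-SIRPa mouse 1, 2 or 3 (edgeR adjusted p = 0.0549 to 0.0952). Ccnd1 had a control-antibody over naive fold change of 0.02 ± 0.45 (edgeR adjusted p = 0.988), and reached 70.9 CPM in anti-SIRPa mouse 4 and 59.8 CPM in naive mouse 1. Of 17 tested cell cycle inhibitors 1, Btg2, rose in control-antibody over naive mice, a share close to that of all tested genes (1.24 ± 0.29, edgeR adjusted p = 0.0234), and not without naive mouse 2, 3 or 4 or control-antibody mouse 2 or 3 (edgeR adjusted p = 0.06 to 0.0764). In anti-SIRPa over control-antibody mice edgeR called 0 of the inhibitors, and DESeq2 called 1, beside 12.1% of all genes. At an unadjusted edgeR p under 0.05, 3 were lower, as were 13.8% of all genes. The median log2 fold changes of the inhibitors were 0.24 and -0.23.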

How the data were processed

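Per the labels' protocols, joint RNA of 12 mice was made into libraries with an Illumina stranded kit for total RNA. The authors deposited raw read counts of each gene, and the submitters' processing notes name the build GRCm38. No aligner, counting program or strand setting is given in the sources used here, so overlapping genes and near-identical copies are uncertain. Replicate numbers name animals. Of 52636 identifiers, 52403 were matched to GENCODE M21, and the rest held 0.024% of counts. The 12 sample tables and the series table held the same counts.

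Counts were tested with edgeR 4.0.16 in R 4.3.3 (filterByExpr by group, TMM, robust quasi-likelihood F-test on all 12 libraries with 1 coefficient per group, Benjamini-Hochberg adjustment over 16674 genes, threshold 0.05). The biological coefficient of variation was 0.334. SE were taken from the fold change and F. A gene at 0 is read against a floor of 3 counts, and this floor covers counting error only. The procedure was tested on simulated data. Alternatives were other size factors, no filter, at least 1 CPM in 4 libraries, DESeq2 1.42.0, limma-voom 3.58.1, no robust dispersion, the 2 compared groups alone, a replicate block, omissions of mice and an epidermal covariate.

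The members and lists were chosen with earlier results of these data known. Genes described singly were those called in either comparison and, in each role, the gene with the highest mean CPM and that with the smallest p for control-antibody over naive mice. Other members named with values, and the genes outside the 43, were named in part after their values were seen. Sequences come from the RefSeq promoter table.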

Additional observations from a re-analysis of the deposited data

Results flagged for a closer look

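Dixon's ratio, the gap from the most extreme of 4 mice to its nearest neighbour divided by the range of the group, was computed in 84 groups, 1 for each described gene or class median in each group of mice. It exceeded the 95% critical value in 9 of them, where chance gives about 4.2, or 1 in 20 groups. In 8 of the 9 the extreme library was anti-SIRPa mouse 4, on the high side. The ratio was 0.980 for the median ratio of replication genes to the naive mean (1.71 in that mouse), 0.983 for Cdc6 (1.70 CPM), 0.932 for Gins2 (4.87 CPM), 0.870 for Mcm3 (25.9 CPM), 0.867 for Uhrf1 (10.3 CPM), 0.851 for Top2a (67.5 CPM), 0.840 for Cenpf (49.5 CPM) and 0.837 for Mki67 (180 CPM). The remaining one was naive mouse 4, low for Bub1b at 5.06 CPM, with a ratio of 0.837. These genes are not independent of each other, since 1 library moved them together. Anti-SIRPa mouse 4 had the highest epidermal marker sum of all mice, 14336 CPM, and naive mouse 4 the lowest, 116 CPM, and the part of these markers in these values was not tested.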

How the results depend on the processing

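The direction of both class medians in the comparisons with control-antibody mice was the same under all 23 alternatives, and none of 1196 refits of single genes in those comparisons changed sign, of which 98 lost and 67 gained a call. For control-antibody over naive mice the 7 members called became 22 with DESeq2 (2905 genes in all, against 1721) and 3 with limma-voom (1166 genes). They became 1 with the 2 compared groups alone (435 genes) and 0 without control-antibody mice 2 and 4 (1 gene). Without naive mouse 4 and anti-SIRPa mouse 2 there was 1 (166 genes). The epidermal covariate, which was chosen after seeing the data, gave 33 (2122 genes). For anti-SIRPa over control-antibody mice the 2 members called became 16 with DESeq2 (1892 genes, against 548). They became 1 with limma-voom (381 genes), 1 without robust dispersion (524 genes) and 6 with the covariate (629 genes). With the 2 groups alone there were 0 (0 genes). The same held without control-antibody mice 2 and 4 (0 genes) and without naive mouse 4 and anti-SIRPa mouse 2 (0 genes). The cause of these changes was not tested.

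The replicate numbers did not pair the mice: deviations of the 12 same-numbered pairs correlated at -0.80 to 0.21, 1 of them over 0.1. With the replicate block 1 member (735 genes) was called for control-antibody over naive and 1 member (78 genes) for anti-SIRPa over control-antibody mice.

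Leaving out 1 mouse at a time gave 1 to 22 members and 412 to 4694 genes for control-antibody over naive mice, and 0 to 21 members and 0 to 3976 genes for anti-SIRPa over control-antibody mice. The class medians ran from 1.03 to 1.40 (replication) and 1.29 to 1.93 (mitosis) in the first, and from -1.33 to -0.88 and -2.52 to -1.36 in the second. For anti-SIRPa over naive mice no alternative called a member. In all, 4 genes were called there without the filter and 20 with DESeq2, and the medians without 1 mouse were -0.17 to 0.22 and -0.95 to 0.22. The fitted sign of single members there changed in 60 of 598 refits, with 0 calls. Without the filter the median of all genes moved to 0.38 for control-antibody over naive and -0.35 for anti-SIRPa over control-antibody mice. Low counts limit Ccnb1, Pcna, Cdc6, Tyms, Ccne1 and Bub1 most.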
